A study of Mus musculus with 4 samples.

Results

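A set of 10 ligand and regulator genes of the transforming growth factor beta (TGF-β) superfamily were followed across the cell types of the mouse aortic arch: Bmp2, Bmp4, Bmp6, Tgfb1, Tgfb2, Tgfb3, Gdf10, Gdf15, Inhba and Grem1. These members were taken by gene symbol from the 31053 genes of the count matrices, and all 10 were found. Among the 7 cell types tested, endothelial cells had the highest levels of Bmp6 and Bmp4, and fibroblasts were set apart by Gdf10. Smooth muscle cells were set apart by Inhba, and mononuclear phagocytes by Tgfb1 and Gdf15. Tgfb2 was also highest in smooth muscle cells, by a smaller difference from fibroblasts whose call depended on the test used. Bmp2 was higher in phagocytes than in fibroblasts and smooth muscle cells over all libraries together, but not in each of them. Grem1 was rare everywhere.

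The samples were aortic arches with their branches from male mice that entered the experiment at 3 months of age. Atherosclerotic mice had received a viral vector and a high-fat diet for 21 weeks, whereas normocholesterolemic mice had received saline and a standard diet. Both conditions were studied in Nrf2flox/flox mice (labelled Nrf2Cdh5Lox), which carry floxed Nrf2 alleles and no Cre, and in Nrf2Cdh5tKO mice, in which a constitutive Cre under the Cdh5 promoter excises exon 5 of Nrf2 (gene Nfe2l2) in endothelial cells and also in a proportion of hematopoietic cells. All mice thus carried the floxed Nrf2 gene. Tissue of 4 mice per normocholesterolemic group and of 3 mice per atherosclerotic group was pooled into 1 single-cell library per group, so that there was no replicate within a condition.

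TGF-β family ligands are secreted dimers, which assemble pairs of type I and type II receptor kinases and pass the signal to SMAD transcription factors. TGF-βs and activins act mainly through SMAD2 and SMAD3 and BMPs through SMAD1, SMAD5 and SMAD9. In the arterial wall, the family is known for its part in smooth muscle contractile identity, matrix deposition, endothelial quiescence and calcification. GDF15 stands apart as a stress-induced hormone with its own receptor, GFRAL, in the hindbrain, and Grem1 is not a ligand but a secreted antagonist that binds BMPs.

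Levels are unique molecular identifiers (UMIs, each of which counts 1 captured mRNA molecule) of a gene per 1000000 UMIs of the same cells (CPM). Unless stated otherwise, 4 values are given in the order normocholesterolemic Nrf2flox/flox, the library labelled normocholesterolemic Nrf2Cdh5tKO, atherosclerotic Nrf2flox/flox and the library labelled atherosclerotic Nrf2Cdh5tKO. Bracketed intervals are exact 95% intervals, which cover counting error only and not differences between mice. The libraries held between 1160 and 8512 barcodes of which 1020 to 7890 were kept as cells, with a median of 9200.5 to 14152.5 UMIs per cell. Cell types were set by marker genes, which gave 7827 fibroblasts, 2150 smooth muscle cells, 1538 mononuclear phagocytes, 516 thymocytes, 376 T cells, 199 B cells, 149 neutrophils and 146 endothelial cells. No defining marker of these types was at 0 in its own cells. A further 783 cells passed the gates of several types and were left out as ambiguous, and 386 passed none. Besides the study's upper limit of 6000 genes per cell, this was the only step against doublets, and no doublet caller was run. Pairs of libraries shared 2 to 10 barcode sequences. The wording "library labelled" is used because Nfe2l2 was not lower in endothelial cells under the Nrf2Cdh5tKO label: its level there was 393 (316 to 484) CPM against 198 (152 to 253) in the normocholesterolemic pair and 381 (275 to 515) against 172 (117 to 244) in the atherosclerotic pair. It was not established whether the counted 3′ ends lie in the excised exon, so the deletion was neither shown nor refuted by these values. By quantitative PCR, the study reported less of the excised exon in bone marrow-derived and liver macrophages of healthy Nrf2Cdh5tKO mice. Lower Nqo1 and Gclm were reported in the same cells. It gave no such measurement for endothelial cells.

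The first question was which cells of the arch carried each ligand. Cell types were compared over the 4 libraries with edgeR's quasi-likelihood test on UMIs summed per library and cell type, with the library as a block and Benjamini-Hochberg adjustment over 11559 genes. All cell types tested were in the same fit and shared its estimate of the spread, so the p-values rest on more sums than those of the 2 types compared. The block takes up shifts common to all cell types of a library. Because the 4 libraries differ in genotype and diet, the spread includes such differences where they vary between cell types. Of the 10 members, 9 passed the filter on low counts and Grem1 did not. In smooth muscle cells against fibroblasts, 2 of the 9 members were higher and 4 lower, beside 47.5% of all genes called in either direction. In mononuclear phagocytes, 3 were higher and 5 lower than in fibroblasts, beside 68.6% of all genes, and again 3 higher and 5 lower than in smooth muscle cells, beside 70.4%. Endothelial cells had 3 members higher and 4 lower than fibroblasts, beside 32.3% of all genes, and 3 higher and 4 lower than smooth muscle cells, beside 32.9%. The median log2 difference of the members was -0.40, -3.84, -1.74, -0.22 and -1.08 in these 5 comparisons, beside -0.02, -0.03, -0.01, -0.15 and -0.12 for all genes tested.

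**Figure D1:**
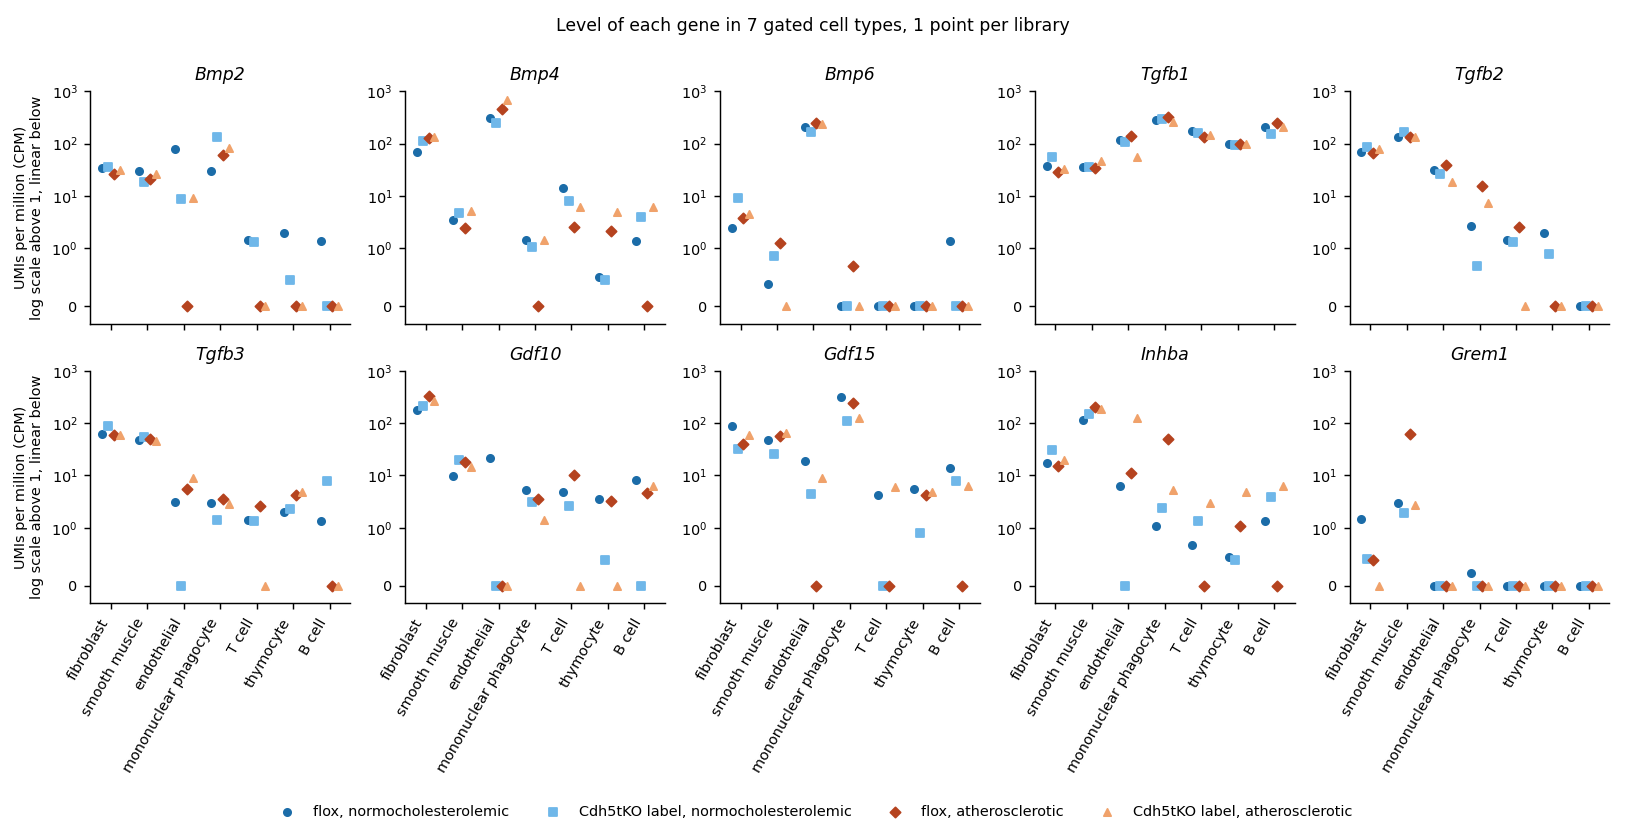
Level of each of the 10 members (CPM, log scale above 1 and linear below) in 7 cell types, with 1 point per library. Bmp6 lies between 164 and 244 CPM in endothelial cells and at or below 8.98 CPM in all other cell types shown, Gdf10 is highest in fibroblasts in all 4 libraries, and Tgfb1 is at 29.1 CPM or above in each cell type.

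Tgfb1, the TGF-β isoform typical of blood cells and platelets, lies on chromosome 7 (chr7:25687002-25705077, plus strand, GRCm38). In mononuclear phagocytes its level was 277, 295, 324 and 260.5 CPM, and a UMI was seen in 86.8%, 81.6%, 75.3% and 76.7% of cells. Fibroblasts had 37.2, 54.2, 29.1 and 33.0 CPM and smooth muscle cells 34.9, 35.3, 34.5 and 46.7 CPM, so neither range overlapped that of phagocytes. Phagocytes exceeded fibroblasts by 3.02 ± 0.16 (SE) on the log2 scale (adjusted p = 1.4e-18) and smooth muscle cells by 3.05 ± 0.17 (adjusted p = 6.0e-18). Among the 7 cell types tested, B cells followed with a mean of 204 CPM, then T cells with 153, endothelial cells with 104 and thymocytes with 96.3 CPM. NK cells, too few for the test, had 215, 246, 219 and 176 CPM from 32, 9, 7 and 7 UMIs. Among neighbours in this order, B and T cells (adjusted p = 0.083), endothelial cells and thymocytes (adjusted p = 0.60) and fibroblasts and smooth muscle cells (adjusted p = 0.91) could not be separated. Endothelial cells exceeded fibroblasts by 1.25 ± 0.23 (adjusted p = 3.3e-05). The transcript was seen in each of the 7 cell types, and in phagocytes the cell with the most UMIs held at most 4.76% of them. Fibroblasts nevertheless held 32.2% of all Tgfb1 UMIs, against 36.5% in phagocytes, because they were far more numerous.

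Tgfb2, an isoform prominent in cardiovascular development, is encoded on the minus strand of chromosome 1 (chr1:186622792-186705989). Among the 7 cell types tested its level was highest in smooth muscle cells, at 133, 164, 133 and 132 CPM, and lower in fibroblasts, at 70.3, 84.0, 66.7 and 78.8 CPM. The 2 ranges did not overlap, and the difference was 0.91 ± 0.22 on the log2 scale (adjusted p = 0.0017). With DESeq2 in place of edgeR this call was lost (adjusted p = 0.10). Fibroblasts held 58.8% of all Tgfb2 UMIs and smooth muscle cells 34.0%. Endothelial cells had 10, 6, 7 and 2 UMIs of Tgfb2, a level 1.54 ± 0.46 below that of fibroblasts (adjusted p = 0.012), which was lost when the normocholesterolemic Nrf2flox/flox library or the library labelled atherosclerotic Nrf2Cdh5tKO was left out. Mesothelial cells, of which only 7, 6 and 1 were found in 3 of the libraries, had 10, 23 and 6 UMIs, or 121, 364 and 435 CPM. In phagocytes and lymphocytes Tgfb2 was close to background, with 24, 2, 22 and 20 UMIs in phagocytes.

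Tgfb3 (chr12:86056745-86079041, minus strand), the third TGF-β isoform, was a transcript of mesenchymal cells. Fibroblasts had 61.9, 87.7, 58.1 and 59.5 CPM and smooth muscle cells 47.8, 54.2, 49.2 and 46.1 CPM. The highest smooth muscle value lay below the lowest fibroblast value, and the test gave a small difference of -0.44 ± 0.14 for smooth muscle minus fibroblast (adjusted p = 0.0088), which DESeq2 did not call (adjusted p = 0.11). Endothelial cells had 1, 0, 1 and 1 UMIs, a level 4.44 ± 0.47 below fibroblasts on the log2 scale, and phagocytes 27, 4, 5 and 8 UMIs. Fibroblasts held 76.1% of its UMIs and smooth muscle cells 17.0%.

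Bmp4, a BMP2-type ligand known from shear-responsive endothelium, is encoded on the minus strand of chromosome 14 (chr14:46383520-46390669). Endothelial cells had 311, 248, 460 and 671 CPM from 99, 56, 83 and 74 UMIs. A single cell held 29.3%, 16.1%, 27.7% and 41.9% of these UMIs. Fibroblasts came second with 70.2, 112, 128 and 134 CPM, and their values lay below all endothelial values. The endothelial excess was 1.64 ± 0.19 over fibroblasts (adjusted p = 1.5e-08) and 6.25 ± 0.26 over smooth muscle cells (adjusted p = 8.4e-20). Smooth muscle cells had only 3.41, 4.69, 2.46 and 5.23 CPM, 4.62 ± 0.23 below fibroblasts on the log2 scale (adjusted p = 3.4e-18). In cell numbers fibroblasts dominated, with 9285 Bmp4 UMIs or 89.1% of the total, against 312 or 3.0% in endothelial cells. T cells had 20, 6, 1 and 2 UMIs and exceeded smooth muscle cells by 1.22 (adjusted p = 0.014), whereas thymocytes had 1, 1, 2 and 1.

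Bmp6, the BMP by which liver endothelium sets hepcidin and iron balance, was the most endothelial member. Its gene (chr13:38345107-38500302, plus strand) overlaps Txndc5 and 4930579J19Rik on the opposite strand. Endothelial cells had 210.3, 164, 244 and 236 CPM from 67, 37, 44 and 26 UMIs, and 35.4%, 55.6%, 46.2% and 42.1% of these cells carried a UMI. Fibroblasts had 2.47, 8.98, 3.83 and 4.42 CPM, smooth muscle cells 8, 5, 1 and 0 UMIs and phagocytes 0, 0, 1 and 0 UMIs. No thymocyte and no T cell carried a Bmp6 UMI. The endothelial level was therefore far above all others, by 5.31 ± 0.32 over fibroblasts (adjusted p = 3.9e-14) and 8.43 ± 0.44 over smooth muscle cells (adjusted p = 1.2e-15). The 146 endothelial cells held 23.7% of all Bmp6 UMIs and the 7827 fibroblasts 61.5%.

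The bases upstream of the Bmp6 start are shown because Nrf2, the factor altered in these mice, recognises the antioxidant response element, and Bmp6 was the 1 member with the core of that element in its promoter window. The windows are those of RefSeq on GRCm38.p6, from 250 bases before to 50 after each start. They covered 8 members with 9 windows, and Bmp2 and Tgfb3 had none. Below are the 250 bases before the RefSeq start of Bmp6 (chr13:38345466-38345715, plus strand), with the element core TGACNNNGC in capitals, and the 250 before the outer start of Gdf15 (chr8:70632457-70632706, minus strand, written 5′ to 3′ along the gene), shown because Gdf15 had 4 ratios between libraries past 2-fold.
Bmp6: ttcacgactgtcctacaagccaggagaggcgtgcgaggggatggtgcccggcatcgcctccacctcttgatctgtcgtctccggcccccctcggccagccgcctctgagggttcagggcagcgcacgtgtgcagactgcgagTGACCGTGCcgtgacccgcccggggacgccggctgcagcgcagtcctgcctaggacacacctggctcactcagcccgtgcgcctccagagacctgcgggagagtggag
Gdf15: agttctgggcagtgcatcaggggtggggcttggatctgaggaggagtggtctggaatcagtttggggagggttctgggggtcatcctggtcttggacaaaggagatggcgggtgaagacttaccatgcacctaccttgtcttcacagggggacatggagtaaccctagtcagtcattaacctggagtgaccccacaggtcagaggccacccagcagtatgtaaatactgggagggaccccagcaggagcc
The core lay at -108 to -100 from the Bmp6 start. This window lies within the longer GENCODE gene, whose first base is 38345107. On either strand the core was found in 1 of 9 member windows and in 12.4% of all 32851 promoter windows, so a match is common. A further 8 motifs were searched on both strands, all chosen after the members' values were seen. These were 2 forms of the AP-1 site (TGANTCA and TGACTCA, the second contained in the first), 2 forms of the C/EBP-ATF composite element (TGATGNAAN and TGATGCAAT, likewise nested), the cAMP response element TGACGTCA and the SMAD palindrome GTCTAGAC, none of which was in a member window. They were in 7.81%, 5.20%, 3.95%, 0.192%, 1.79% and 0.213% of all windows, respectively. The BMP-responsive SMAD box GGCGCC was in the windows of Grem1 and Gdf10 and in 11.9% of all windows, and the SMAD site CAGACA in that of Tgfb2 and in 21.04% of all. None of the 9 motifs occurred in the Gdf15 bases shown.

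Bmp2 (chr2:133552159-133562885, plus strand), an osteogenic ligand linked to vascular calcification, was led by phagocytes. They had 30.0, 132, 59.5 and 82.8 CPM, fibroblasts 34.2, 35.9, 25.6 and 31.7 CPM, and smooth muscle cells 30.1, 18.4, 20.9 and 26.5 CPM. The phagocyte range was wide and its lowest library, the normocholesterolemic Nrf2flox/flox library, fell within the fibroblast range. Over the 4 libraries phagocytes were higher by 1.28 ± 0.31 than fibroblasts (adjusted p = 9.2e-04) and by 1.68 ± 0.34 than smooth muscle cells (adjusted p = 1.8e-04). Fibroblasts nevertheless held 61.1% of all Bmp2 UMIs, against 17.7% in phagocytes. In endothelial cells 25, 2, 0 and 1 UMIs were found, and the 25 came from 1 cell. Neither endothelial comparison was called (adjusted p = 0.84 and 0.88). Without the library of that cell the endothelial level was 2.65 below fibroblasts on the log2 scale, and this was called.

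Gdf10 (chr14:33923587-33937983, plus strand), also named BMP3B, marked fibroblasts. Its level in them was 180.4, 216, 336 and 269 CPM, with a UMI in 44.0%, 40.7%, 56.1% and 48.6% of cells. Smooth muscle cells had 9.91, 19.6, 18.5 and 14.5 CPM, and the cell with the most UMIs held 20.6% to 33.3% of them. Phagocytes had 5.17, 3.11, 3.50 and 1.43 CPM. Fibroblasts exceeded smooth muscle cells by 4.01 ± 0.28 on the log2 scale (adjusted p = 7.3e-12) and phagocytes by 5.75 ± 0.33 (adjusted p = 9.5e-14). They held 93.6% of all 22490 Gdf10 UMIs. Thymocytes, a cell type that should lack this gene, had a UMI of Gdf10 in 3.47%, 0.521%, 2.97% and 0% of cells at median depths of 5430, 6271, 5703 and 5215 UMIs, against 12030, 16569, 13841.5 and 10612 in fibroblasts. The phagocyte shares were 5.77%, 2.67%, 2.74% and 1.37%. With cells thinned to 5000 UMIs they were 2.18%, 1.59%, 0.98% and 0%, against 2.86%, 0.847%, 0% and 0% in thymocytes, and are read as background.

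Gdf15 (chr8:70629393-70632456, minus strand), a stress-responsive cytokine known in plaque macrophages, was highest in phagocytes among the 7 cell types tested. These had 315, 112, 246 and 125 CPM, with a UMI in 39.8%, 20.8%, 21.2% and 18.8% of cells. In the atherosclerotic Nrf2flox/flox library 1 cell held 164 of the 351 UMIs, 46.7%. Fibroblasts had 88.4, 32.0, 40.0 and 59.0 CPM and smooth muscle cells 47.4, 25.4, 56.6 and 64.6 CPM, all below the lowest phagocyte value. Phagocytes exceeded fibroblasts by 1.98 ± 0.21 (adjusted p = 4.0e-09) and smooth muscle cells by 2.18 ± 0.23 (adjusted p = 3.1e-09). Fibroblasts and smooth muscle cells could not be separated (adjusted p = 0.48). Of all Gdf15 UMIs, fibroblasts held 50.2% and phagocytes 29.7%. Endothelial cells had 6, 1, 0 and 1 UMIs, 2.84 ± 0.58 below fibroblasts on the log2 scale (adjusted p = 3.4e-04). The thymocyte shares with a UMI, 4.95%, 1.04%, 3.96% and 4.76%, mark the background. Gfral, the GDF15 receptor, had 0 UMIs in fibroblasts, smooth muscle cells, endothelial cells and phagocytes.

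Inhba (chr13:16011851-16031621, plus strand), which encodes the beta A subunit of activin A and inhibin A, was a smooth muscle transcript. Smooth muscle cells had 113, 148, 204 and 188 CPM, with a UMI in 66.3%, 71.8%, 72.4% and 60.1% of cells, and fibroblasts 17.0, 31.0, 15.3 and 19.6 CPM. The lowest smooth muscle value was several times the highest fibroblast value, and the difference was 2.86 ± 0.45 on the log2 scale (adjusted p = 2.3e-05). Phagocytes were 4.14 ± 0.58 below smooth muscle cells (adjusted p = 2.8e-06), from 10, 7, 71 and 15 UMIs. Of the 71 UMIs, 62 came from 1 cell. Without that library phagocytes were also below fibroblasts, by 3.1 on the log2 scale, whereas with it the difference was not called (adjusted p = 0.068). Endothelial cells had 2, 0, 2 and 14 UMIs, the 14 again in 1 cell, and lay 3.06 ± 0.90 below smooth muscle cells (adjusted p = 0.012), a call that was lost without either normocholesterolemic library. Neutrophils, which were too few for the test, had 39, 7, 26 and 3 Inhba UMIs, or 68.7, 46.6, 92.3 and 57.5 CPM, with 30.8% to 100% in a single cell.

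Grem1 (chr2:113746164-113758646, minus strand), the BMP antagonist, had 64, 11, 50 and 9 UMIs in smooth muscle cells, 78, 12, 3 and 0 in fibroblasts and 2, 0, 0 and 0 in phagocytes. No endothelial cell, T cell, B cell or thymocyte had a Grem1 UMI. The UMIs sat in few cells: 1 smooth muscle cell held 48 of the 50 in the atherosclerotic Nrf2flox/flox library and 1 fibroblast all 12 in the library labelled normocholesterolemic Nrf2Cdh5tKO. In fibroblasts of the normocholesterolemic Nrf2flox/flox library, 0.622% of cells had a UMI. Ambiguous cells held 37.1% of all Grem1 UMIs, the largest such share of the 10 members.

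**Figure D2:**
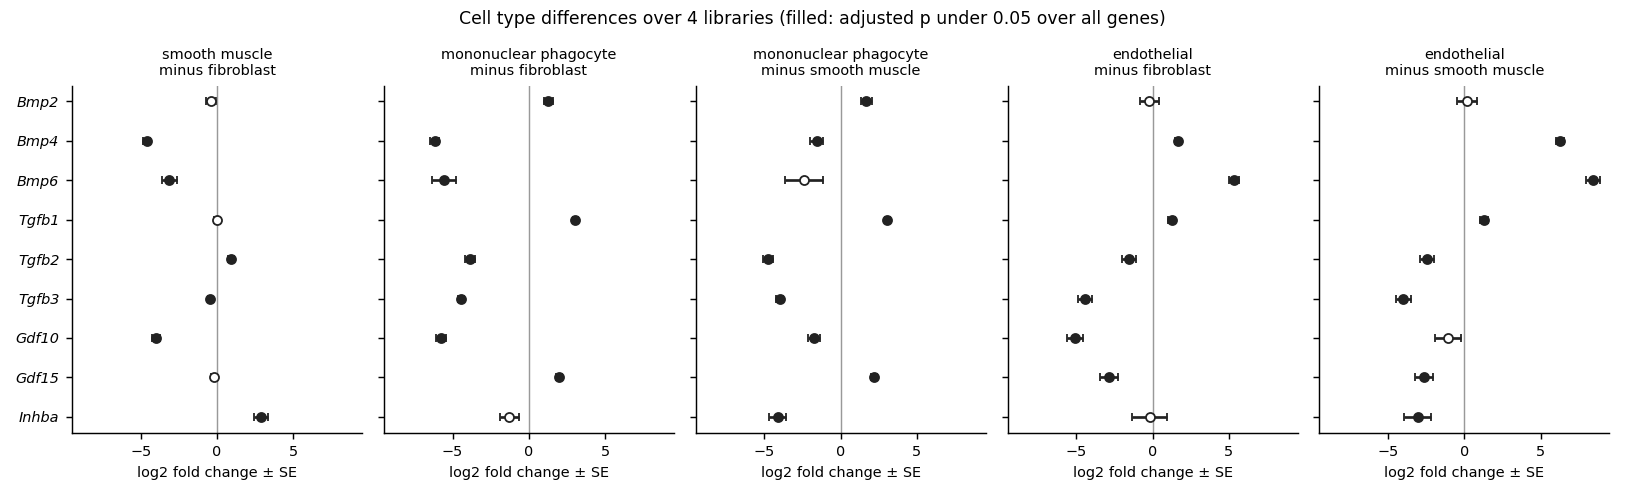
Log2 difference of each of the 9 members tested in 5 comparisons of cell types over 4 libraries, with standard errors as bars. Filled points have an adjusted p under 0.05; Bmp6 and Bmp4 are highest in endothelial cells (8.43 and 6.25 above smooth muscle cells), Inhba and Tgfb2 are above fibroblasts in smooth muscle cells (2.86 and 0.91).

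The members also differed among fibroblasts. Subsets were gated within them on other genes (Pi16, Dact2 and Dpp4; Comp, Fmod and Chad; Penk, Epyc and Fgf10; Cilp and Meox1; Tfap2b and Mab21l2), and no test was made between subsets. Between 51.8% and 56.8% of fibroblasts entered no subset. Gdf10 was low in the Pi16 subset, at 73.6, 99.6, 78.5 and 76.9 CPM, and high in the Comp subset, at 404, 544, 707 and 461 CPM, and in the Penk subset, at 371, 779, 744 and 697 CPM. The ranges of the Pi16 subset and of either other subset did not overlap. Bmp4 had the same order between the first 2 subsets, with 28.9, 44.1, 29.9 and 38.3 CPM in the Pi16 subset and 127, 264, 283 and 209 CPM in the Comp subset. Bmp2 ran the other way. It had 61.9, 57.9, 44.5 and 51.7 CPM in the Pi16 subset against 17.0, 17.3, 9.70 and 9.91 CPM in the Comp subset. For Bmp6, the Pi16 subset held 79, 94, 26 and 55 of the 131, 236, 26 and 58 fibroblast UMIs, more than any other subset. The Pi16 subset held 20.3%, 23.6%, 31.0% and 23.2% of the fibroblasts.

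Levels of Tgfb1 and Inhba were high in the Cilp subset, a small part of the fibroblasts. Tgfb1 was at 97.5, 173, 80.2 and 152 CPM there, above all values of the Pi16, Comp and Penk subsets, and Inhba at 45.8, 90.4, 16.05 and 181 CPM. This subset had 116, 138, 4 and 14 cells, and in the 4 cells of the atherosclerotic Nrf2flox/flox library Inhba had 1 UMI and Tgfb1 5. Its share of the fibroblasts was 2.58%, 8.50%, 0.816% and 1.16%. The small Tfap2b subset had 53 cells in the normocholesterolemic Nrf2flox/flox library, with 90 Inhba UMIs (130 CPM) and 20 of the 78 Grem1 UMIs of that library's fibroblasts. It had 3, 0 and 1 cells in the other libraries, and the single fibroblast with 12 Grem1 UMIs was 1 of the 3.

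**Figure D3:**
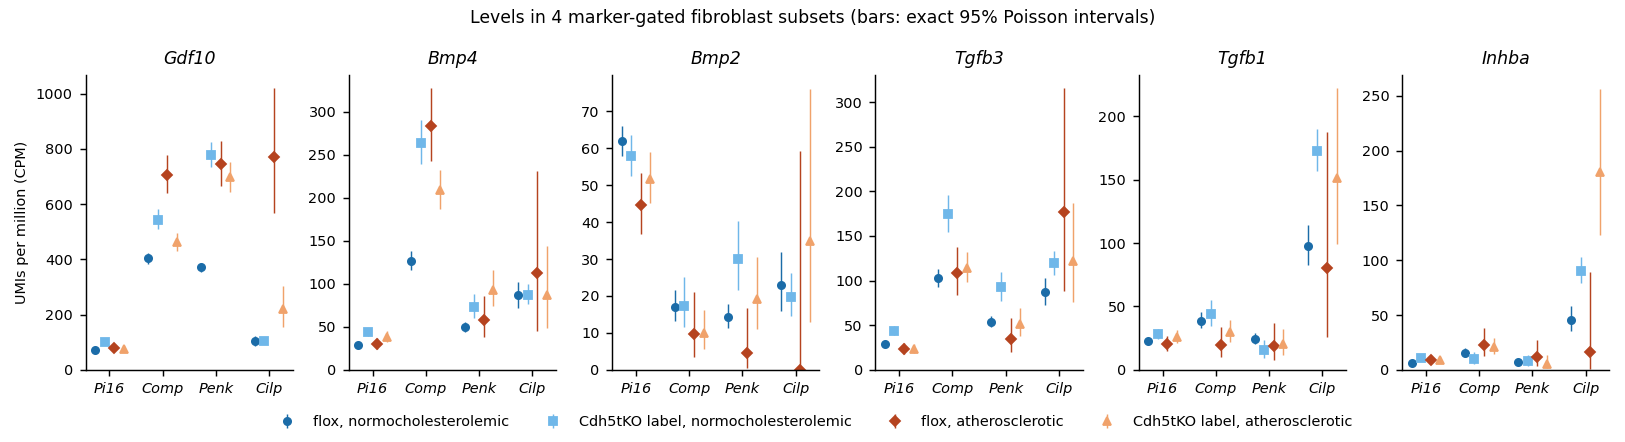
Level (CPM) of Gdf10, Bmp4, Bmp2, Tgfb3, Tgfb1 and Inhba in 4 gated fibroblast subsets of each library, with exact 95% Poisson intervals as bars. Gdf10 and Bmp4 are lower and Bmp2 is higher in the Pi16 subset than in the Comp subset in all 4 libraries; the Cilp subset of the atherosclerotic Nrf2flox/flox library is 4 cells.

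Among phagocytes, Gdf15 and Bmp2 were concentrated in certain subsets, again gated on other genes. Gdf15 was at 478, 137, 230.0 and 248 CPM in the Lyve1 subset (Lyve1, Folr2, Cd209f and Cd163, resident macrophages) and at 536, 222, 165 and 187 CPM in the Trem2 subset (Cx3cr1, Trem2, Acp5 and Cd72), but only at 38.3, 3.65, 0 and 27.3 CPM in the cavity subset (Lyz1, Retnla, Ear2 and Fn1). Bmp2 was at 55.2, 208, 201 and 155 CPM in the Lyve1 subset. In the cavity subset Bmp2 was at 15.0, 0, 14.6 and 7.58 CPM, below the Lyve1 subset in each library. Tgfb1 was present in all subsets and highest in the monocyte subset, at 431, 573, 506 and 579 CPM, from only 34, 9, 12 and 10 cells. The Lyve1 subset held 345, 202, 58 and 140 cells, the Trem2 subset 74, 26, 11 and 33 and the cavity subset 140, 15, 14 and 30.

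**Figure D4:**
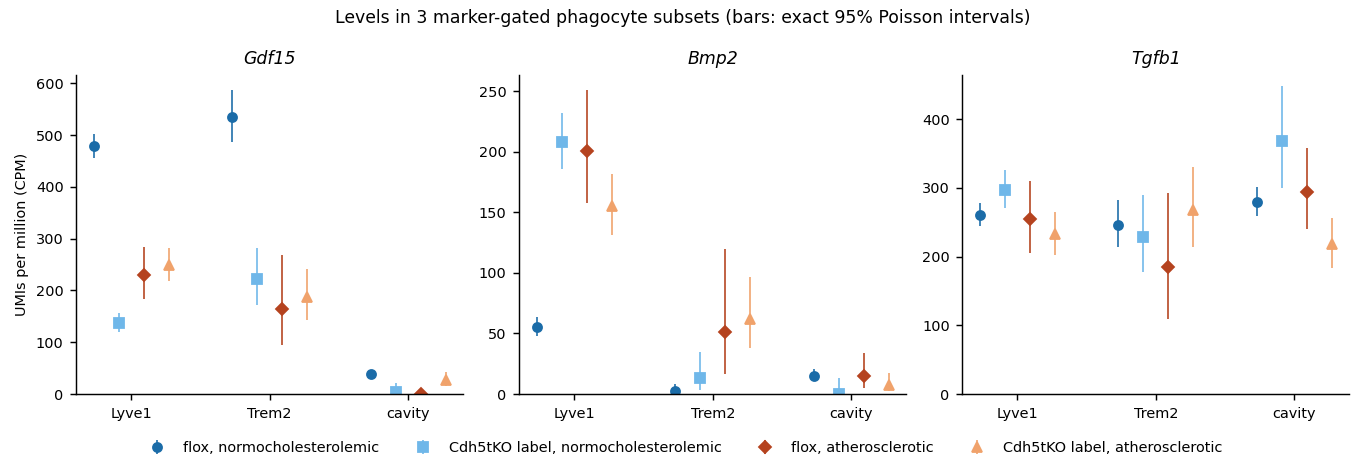
Level (CPM) of Gdf15, Bmp2 and Tgfb1 in the Lyve1, Trem2 and cavity subsets of mononuclear phagocytes in each library, with exact 95% Poisson intervals. Gdf15 is lower in the cavity subset than in the 2 other subsets in all 4 libraries, and Bmp2 in the Lyve1 subset is lowest in the normocholesterolemic Nrf2flox/flox library (55.2 CPM).

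The second question was how the members differed with diet and genotype. Each condition was 1 library, and conditions were not tested against each other (a fit of diet and genotype over the 4 libraries was not run). The log2 ratio of the CPM of 2 libraries is given with the interval that counting allows. Of 120 combinations of member, cell type and contrast in fibroblasts, smooth muscle cells and phagocytes, 96 had enough UMIs (at least 20 over both libraries and a UMI in each). Of these, 16 were at least 2-fold with an interval that left out 0. These contrasts share libraries, so a library that stands apart enters 2 of them. The share of all genes past this fold is given beside the members: in fibroblasts 6.22% for diet in Nrf2flox/flox (2 of 10 members, both lower in the atherosclerotic library), 5.77% for diet in the libraries labelled Nrf2Cdh5tKO (1 of 9, lower), 6.32% for genotype in the normocholesterolemic pair (3 of 10, 1 higher and 2 lower under the Nrf2Cdh5tKO label) and 2.11% for genotype in the atherosclerotic pair (0 of 9). In smooth muscle cells the background was 7.53% (1 of 9 members, higher), 4.66% (1 of 9, higher), 5.16% (0 of 9) and 4.62% (1 of 8, lower) in the same order of contrasts. In phagocytes it was 8.83% (2 of 7, higher), 5.08% (1 of 5, higher), 10.1% (2 of 6, 1 in each direction) and 5.19% (2 of 5, lower). With 0 to 3 members per contrast, these counts are small, and several rest on single cells.

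Gdf15 had 4 ratios past 2-fold, as had Grem1, whose ratios rest on few cells. In fibroblasts the Gdf15 diet ratio was -1.14 (-1.32 to -0.97) in Nrf2flox/flox mice, from 272 against 4689 UMIs, and its genotype ratio in the normocholesterolemic pair -1.47 (-1.57 to -1.36), whereas that of the atherosclerotic pair was 0.56 (0.36 to 0.76). Between the libraries labelled Nrf2Cdh5tKO it ran the other way, 0.88 (0.74 to 1.02), just short of 2-fold. The normocholesterolemic Nrf2flox/flox library was thus the high one, with 88.4 CPM against 32.0 to 59.0 in the 3 others. Phagocytes had the same high library: the genotype ratio was -1.50 (-1.67 to -1.33) in the normocholesterolemic pair and -0.97 (-1.19 to -0.75) in the atherosclerotic pair, the latter -0.45 without the cell with the most UMIs. Their diet ratio in Nrf2flox/flox mice was -0.36 (-0.52 to -0.20) and became -1.15 when the cell with the most UMIs was left out of each library. In smooth muscle cells the genotype ratio in the normocholesterolemic pair was -0.90 (-1.16 to -0.65) and the diet ratio between the libraries labelled Nrf2Cdh5tKO was 1.35 (1.04 to 1.66).

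The Gdf15 difference between the normocholesterolemic libraries was present in the 4 larger fibroblast subsets, at -1.17 (-1.42 to -0.92) in the Pi16 subset, -0.69 (-1.0 to -0.38) in the Comp subset, -1.58 (-2.26 to -0.96) in the Penk subset and -2.0 (-2.58 to -1.44) in the Cilp subset. The diet ratio in Nrf2flox/flox mice was not as even: it was -0.15 (-0.44 to 0.13) in the Pi16 subset and -1.85 (-2.59 to -1.19) in the Comp subset. Among phagocytes, the genotype ratio in the normocholesterolemic pair was -1.80 (-2.02 to -1.59) in the Lyve1 subset and -1.27 (-1.67 to -0.90) in the Trem2 subset. In the atherosclerotic pair, neither subset had a lower Gdf15 level under the Nrf2Cdh5tKO label. Genes of the stress response, chosen after these values were seen, were read in the same fibroblasts. The heat shock gene Hspa1a was also highest in the normocholesterolemic Nrf2flox/flox library, at 200.2, 83.3, 93.9 and 79.0 CPM, as was Ddit3, a mediator of the integrated stress response, at 87.2, 53.3, 54.4 and 62.3 CPM, whereas Atf3 was at 818, 884, 749 and 1001 CPM, Trib3 at 4.79, 5.14, 5.30 and 4.65 CPM and Jun at 2285, 2410, 2726 and 2535 CPM. In phagocytes Hspa1a was at 348, 405, 153 and 283 CPM, highest in the library labelled normocholesterolemic Nrf2Cdh5tKO. Ddit3 in phagocytes was at 65.9, 59.7, 42.7 and 54.5 CPM, highest in the normocholesterolemic Nrf2flox/flox library by a small margin. Their part in the result was not tested.

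Bmp2 in phagocytes had the largest genotype ratio of a BMP ligand, in the normocholesterolemic pair only. It was higher under the Nrf2Cdh5tKO label in the normocholesterolemic pair by 2.13 (1.91 to 2.36), from 382 against 273 UMIs. In the atherosclerotic pair it was higher by 0.48 (0.11 to 0.85), and 1 cell held 23 of the 85 UMIs of the Nrf2flox/flox library. The diet ratio was 0.99 (0.62 to 1.34) in Nrf2flox/flox mice and -0.67 (-0.91 to -0.43) between the libraries labelled Nrf2Cdh5tKO. Within the Lyve1 subset the normocholesterolemic genotype ratio was 1.92 (1.65 to 2.18) and the Nrf2flox/flox diet ratio 1.86 (1.46 to 2.25). In the atherosclerotic pair this subset went the other way, with the lower Bmp2 level under the Nrf2Cdh5tKO label. Here the normocholesterolemic Nrf2flox/flox library was the low one. The Lyve1 subset, which carries Bmp2, held 45.2%, 59.9%, 39.7% and 47.9% of the phagocytes. Of the immediate early genes, which respond to tissue dissociation, Fos and Jun were also lowest in that library in phagocytes. Fos was at 1018, 2071, 1621 and 2380 CPM and Jun at 830.3, 2279, 1370 and 2083 CPM. Atf3 was instead lowest in the atherosclerotic Nrf2flox/flox library, at 1365, 2114, 1289 and 2099 CPM. Their part in the result was not tested. In fibroblasts Bmp2 differed by 0.07 (-0.05 to 0.18) in the normocholesterolemic pair, and in smooth muscle cells by -0.71 (-1.02 to -0.41).

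Bmp6 and Bmp4 differed in fibroblasts. Bmp6 was higher in the library labelled normocholesterolemic Nrf2Cdh5tKO by 1.86 (1.55 to 2.18), with 236 against 131 UMIs and a UMI in 10.47% against 2.20% of cells (4.30% against 0.991% with cells thinned to 5000 UMIs), and the diet ratio under that label was -1.02 (-1.46 to -0.60). Its level in all fibroblasts was 2.47, 8.98, 3.83 and 4.42 CPM, so the library labelled normocholesterolemic Nrf2Cdh5tKO was the high one. In Nrf2flox/flox mice the atherosclerotic library had the higher level. In the Pi16 subset, which held the most Bmp6 UMIs of the subsets, the genotype ratio in the normocholesterolemic pair was 1.26 (0.81 to 1.71). The diet ratio of that subset under the Nrf2Cdh5tKO label was -0.01 (-0.52 to 0.48). Bmp4 stayed short of 2-fold: its diet ratio in Nrf2flox/flox mice was 0.87 (0.76 to 0.98) and its genotype ratio in the normocholesterolemic pair 0.67 (0.60 to 0.74). In Nrf2flox/flox mice the Bmp4 diet ratio was 1.16 (0.90 to 1.41) in the Comp subset and 0.05 (-0.31 to 0.40) in the Pi16 subset. Under the Nrf2Cdh5tKO label, all fibroblasts had 112 CPM in the normocholesterolemic and 134 CPM in the atherosclerotic library. Both of these subsets had the lower level in the atherosclerotic library under that label. In endothelial cells, which numbered 65, 36, 26 and 19, no ratio was formed, and the levels in the cell type paragraphs stand for themselves.

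Gdf10 in fibroblasts was higher in atherosclerotic libraries by 0.90 (0.83 to 0.96) in Nrf2flox/flox mice and by 0.31 (0.25 to 0.37) under the Nrf2Cdh5tKO label. By subset, the Nrf2flox/flox diet ratio was 0.09 (-0.13 to 0.31) in the Pi16 subset, 0.81 (0.65 to 0.96) in the Comp subset, 1.0 (0.83 to 1.17) in the Penk subset and 1.33 (1.24 to 1.42) in fibroblasts of no subset. Under the Nrf2Cdh5tKO label the same ratio was -0.37 (-0.57 to -0.18), -0.24 (-0.38 to -0.09), -0.16 (-0.30 to -0.02) and 0.56 (0.47 to 0.65). Of these 4 groups of cells, those outside the subsets alone had intervals above 0 under both labels. The Cilp subset, with 4 and 14 atherosclerotic cells, is not included.

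Tgfb1 in fibroblasts had diet ratios of -0.35 (-0.57 to -0.14) in Nrf2flox/flox mice and -0.72 (-0.88 to -0.56) under the Nrf2Cdh5tKO label. For genotype, the normocholesterolemic pair gave 0.54 (0.44 to 0.64) and the atherosclerotic pair 0.18 (-0.07 to 0.43). The Cilp subset, whose Tgfb1 lay above that of the Pi16, Comp and Penk subsets, was 2.58%, 8.50%, 0.816% and 1.16% of fibroblasts. Its part in these ratios was not tested. Tgfb1 in phagocytes had ratios of 0.22 (0.08 to 0.37) and -0.18 (-0.32 to -0.04) for diet and of 0.09 (-0.02 to 0.20) and -0.31 (-0.48 to -0.14) for genotype. Tgfb2 in smooth muscle cells ranged from -0.31 (-0.48 to -0.14) for diet under the Nrf2Cdh5tKO label to 0.29 (0.19 to 0.40) for genotype in the normocholesterolemic pair. Tgfb3 in fibroblasts ranged from -0.56 (-0.68 to -0.44) for diet under the Nrf2Cdh5tKO label to 0.50 (0.42 to 0.58) for genotype in the normocholesterolemic pair. None of the ratios in this paragraph reached 2-fold.

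Inhba in smooth muscle cells was higher in the atherosclerotic libraries, by 0.85 (0.62 to 1.08) in Nrf2flox/flox mice and by 0.35 (0.20 to 0.50) under the Nrf2Cdh5tKO label. The counts behind the atherosclerotic values were 166 UMIs in 76 cells and 611 UMIs in 336 cells.

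The remaining ratios past 2-fold came from few cells. Inhba in phagocytes had a diet ratio of 5.50 (4.54 to 6.62) in Nrf2flox/flox mice, which was 3.04 without the cell with the most UMIs, and 66 of its 71 UMIs were in phagocytes of no subset. Its genotype ratio in the atherosclerotic pair, -3.21 (-4.12 to -2.39), was -1.56 without that cell. Tgfb2 in phagocytes had a diet ratio of 2.54 (1.64 to 3.44) in Nrf2flox/flox mice, which was 0.10 without the cell that held 19 of 22 UMIs, and of 3.38 (1.33 to 6.52) under the Nrf2Cdh5tKO label, from 20 against 2 UMIs. Its genotype ratio in the atherosclerotic pair was -1.10 (-2.05 to -0.16), and 0.89 without that cell. Grem1 in smooth muscle cells had a diet ratio of 4.34 (3.78 to 4.90) in Nrf2flox/flox mice and a genotype ratio of -4.47 (-5.68 to -3.44) in the atherosclerotic pair, which became 0.17 and -0.70. In fibroblasts, Grem1 had a diet ratio of -1.74 (-4.04 to -0.14) in Nrf2flox/flox mice, from 3 against 78 UMIs, and a genotype ratio of -1.69 (-2.70 to -0.80) in the normocholesterolemic pair, from the 12 UMIs of 1 cell against 78.

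**Figure D5:**
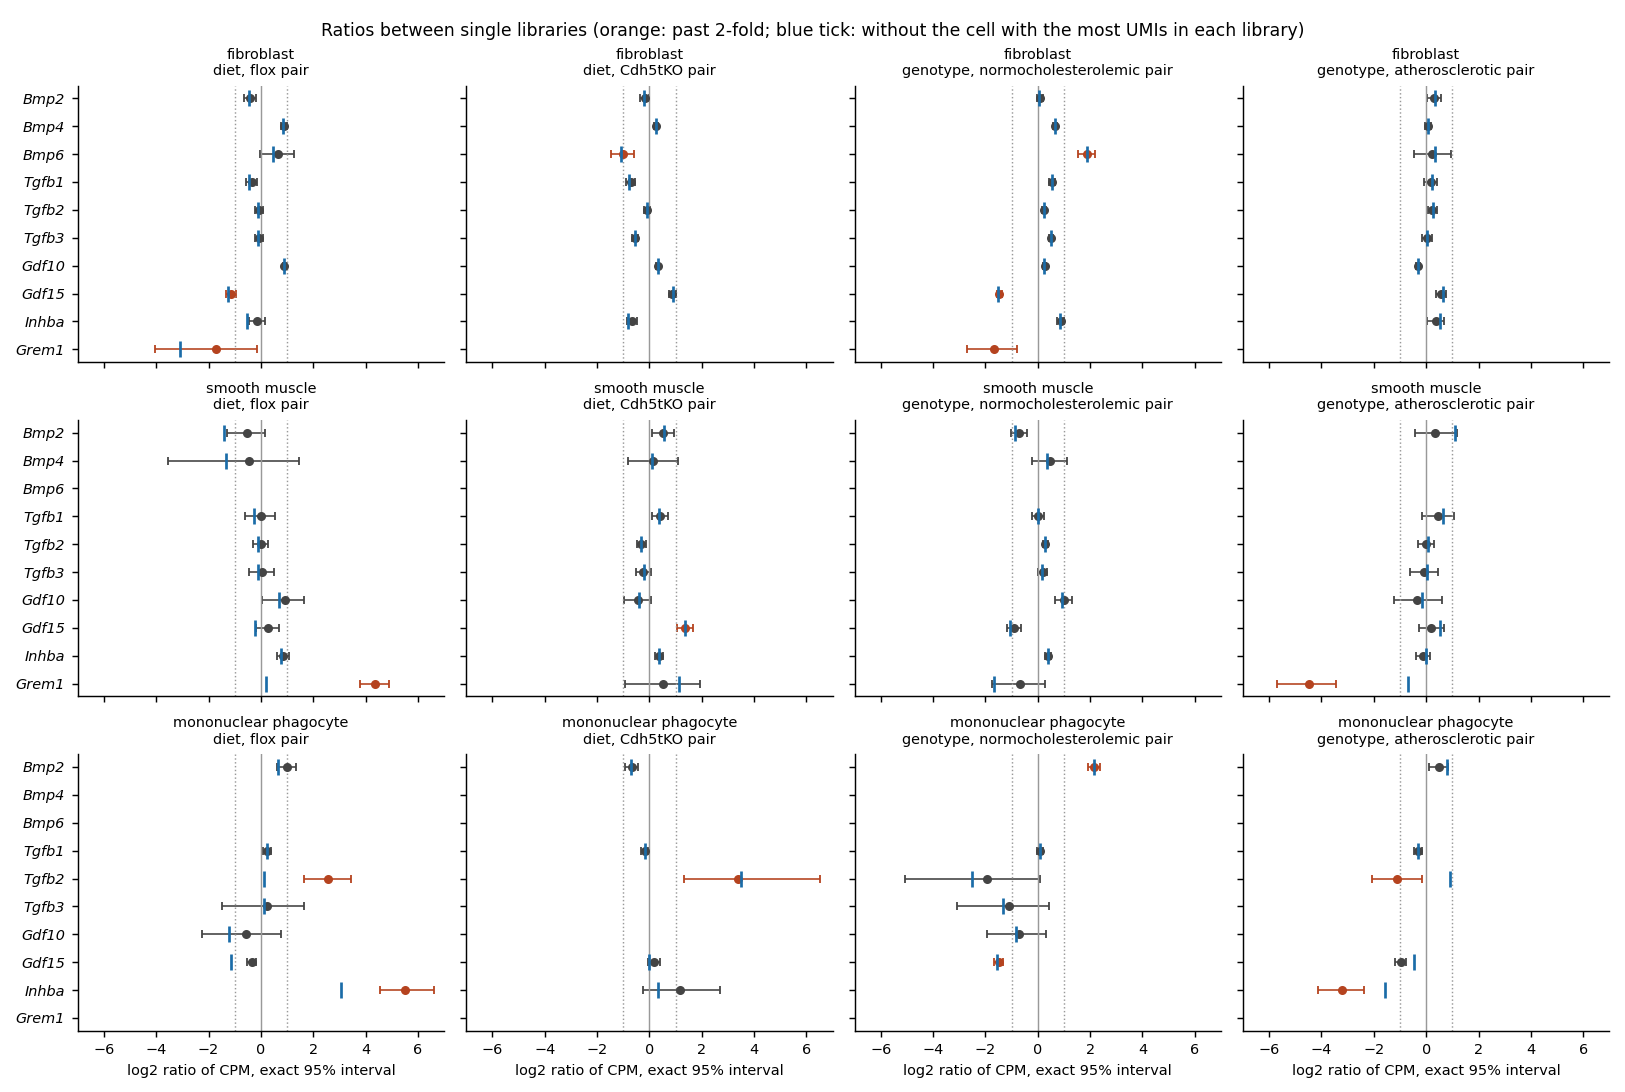
Log2 ratio of each member between libraries for 2 diet and 2 genotype contrasts in fibroblasts, smooth muscle cells and mononuclear phagocytes, with exact 95% intervals. Orange points are past 2-fold with an interval that leaves out 0 (16 of 96), and blue ticks give the ratio without the cell with the most UMIs; Grem1 in smooth muscle cells moves from 4.34 to 0.17.

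The rest of the pathway was read from 6 lists of genes, tested in the same fit. The counts for each list are to be read beside the shares of all genes called. In endothelial cells, 13.6% of all genes were higher and 18.7% lower than in fibroblasts, and 14.7% and 18.1% than in smooth muscle cells. In phagocytes the shares were 33.3% and 35.3% against fibroblasts and 35.0% and 35.4% against smooth muscle cells. In smooth muscle cells against fibroblasts, 47.5% were called in either direction. Few other ligands were measurable: 4 of 24 passed the filter, of which smooth muscle cells had 1 higher than fibroblasts (Bmp3, 1.19 on the log2 scale) and 2 lower (Bmp7, -4.73, and the Nodal antagonist Lefty1, -1.87). In phagocytes all 4 (Bmp3, Bmp7, Lefty1 and Gdf11) were lower than in fibroblasts, and 3 were lower than in smooth muscle cells (Bmp3, Gdf11 and Lefty1). In endothelial cells, in which Bmp3 and Bmp7 had 0 UMIs, 3 were called lower than in fibroblasts (Bmp3, Bmp7 and Lefty1) and 1 than in smooth muscle cells (Bmp3). Of the receptors, 11 of 15 were tested, and the smooth muscle had 3 higher and 6 lower than fibroblasts, among them the type I receptors Bmpr1b (2.84) and Tgfbr1 (0.96) and, lower, the co-receptor Tgfbr3 (-1.85) and Acvrl1 (-1.78). Endothelial cells had 4 receptors higher and 5 lower than fibroblasts and 6 higher and 3 lower than smooth muscle cells. Their leading gene was the co-receptor endoglin (Eng), 2.21 above fibroblasts and 3.91 above smooth muscle cells, where Acvrl1, the type I receptor for BMP9, was higher by 2.25. Phagocytes had 1 receptor higher (Tgfbr1, 0.93) and 8 lower than fibroblasts, and 2 higher (Tgfbr2, 1.43, and Acvrl1, 1.06) and 5 lower than smooth muscle cells.

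Of the latency and activation genes, 11 of 13 were tested. TGF-βs are secreted in a latent form, held by binding proteins or by LRRC32 and NRROS at the cell surface. In smooth muscle cells, 1 of these genes was higher than in fibroblasts (Ltbp1, 0.85) and 4 were lower, led by Fbn1 (-2.53). Phagocytes, the cells with the most Tgfb1, had Nrros, which tethers latent TGF-β1 on myeloid cells, 6.63 above fibroblasts, and the proprotein convertase Furin 2.88 above, with 8 lower. Endothelial cells had Nrros (2.93) and Lrrc32 (0.93) above fibroblasts and 6 lower. Against smooth muscle cells, 3 genes were higher and 8 lower in phagocytes and 3 higher and 5 lower in endothelial cells.

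Secreted antagonists other than Grem1 were carried by mesenchymal cells. Of 14 listed, 8 were tested. All 8 were lower in phagocytes than in fibroblasts and than in smooth muscle cells, beside 35.3% and 35.4% of all genes. In endothelial cells 7 and 6 were lower in the same comparisons, beside 18.7% and 18.1%, with none higher. The smooth muscle had Sost (6.05) and Fstl3 (1.13) above fibroblasts and 5 lower, including the activin-binding follistatin, Fst (-3.88), and the BMP-binding Chrdl1 (-3.18). Inhba and Fst thus lay in opposite cells, Inhba higher and Fst lower in smooth muscle cells.

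All 8 SMADs were tested. Smooth muscle cells had 2 higher (Smad9, 2.08, a BMP SMAD, and Smad6, 0.49, an inhibitor) and 3 lower than fibroblasts, led by Smad3 (-1.72). Endothelial cells had 3 higher than fibroblasts (Smad6, 1.94, Smad7, 0.97, and Smad1, 0.57) and 1 lower (Smad3, -2.93), and 2 higher and 0 lower than smooth muscle cells (Smad6, 1.45, and Smad1, 0.90). Phagocytes had 1 higher (Smad2, 0.57) and 7 lower than fibroblasts, and 1 higher and 5 lower than smooth muscle cells. Of 14 response genes, 13 were tested, and 1 of them, Ltbp2, is also on the latency list. Smooth muscle cells had 7 higher and 4 lower than fibroblasts, with Id4 (2.04) among the higher and Tgfbi (-5.13) among the lower. Endothelial cells had 2 higher than fibroblasts, the BMP targets Id1 (3.29) and Atoh8 (2.08), and 8 lower. Against smooth muscle cells they had 2 higher (Tgfbi, 1.91, and Id1, 1.69) and 5 lower. Phagocytes had 3 higher and 10 lower than fibroblasts, beside 33.3% and 35.3% of all genes. They had 2 higher and 9 lower than smooth muscle cells, beside 35.0% and 35.4%. The median log2 difference of the response genes was 0.45 in smooth muscle cells, -2.43 in phagocytes and -1.22 in endothelial cells, each against fibroblasts.

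The genes whose pattern was most like that of a member were found by Pearson's r of log2(CPM + 1) over 28 sums of 7 cell types and 4 libraries, among 15112 genes. These sums share libraries and cell type composition, and the values are descriptive. Bmp6 went with Unc45b (r = 0.98), Ptprb and Tmem44, and Bmp4 with Car8 (r = 0.95), Adh7 and Tek. Ptprb and Tek are endothelial receptor genes. Tgfb1 went with Sh3bgrl3 (r = 0.94), Arpc5 and Inpp5d, Tgfb2 with 1200007C13Rik (r = 0.96), Hoxa3 and Sgms2, and Tgfb3 with Cercam (r = 0.92), Gnao1 and Olfr1033. Gdf10 went with Bdh2 (r = 0.94), C1s1 and Tmeff2, Gdf15 with A530013C23Rik (r = 0.91), Etv1 and Fgd4, and Bmp2 with Gm3336 (r = 0.91), Rab11fip5 and Lamp1. Inhba was closest to Smad9 (r = 0.88), Arhgef17 and Atl3, and Grem1 to Gm44421 (r = 0.93), Tmem117 and Fgf12.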

How the data were processed

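Single-cell suspensions of pooled aortic arches were sorted as DAPI-negative cells and processed with 10x Chromium 3′ chemistry. The authors deposited raw UMI counts per gene and barcode, not normalized, made with Cell Ranger 6.1.2 on mm10. The study's own limits were then applied, namely 200 to 6000 detected genes and no more than 15% of UMIs from mitochondrial genes. A cell was given a type where at least 50% of that type's markers had a UMI, and was ambiguous where another type scored at least 50% of the best score. This rule was revised on cell numbers before members were read. The members and gene lists were chosen with earlier results of these data known. Named genes are the 10 members, the 3 genes most like each and, from each pathway list, up to 2 called genes with the largest fold in each direction.

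UMIs were summed per library and cell type. Cell types with at least 10 cells in each library were fitted with edgeR 4.0.16 (quasi-likelihood test, TMM, filterByExpr, library as a block), adjusted by Benjamini-Hochberg at 0.05. Each standard error (SE) is approximate: the absolute log2 difference was divided by the square root of the test's F statistic. The test was checked on simulated data. In a first run too few of the genes changed 2-fold were recovered for the pass criterion, which was set anew after that was seen. Replicates within a condition were not given, so ratios between libraries have exact binomial intervals, levels exact Poisson and shares exact Clopper-Pearson intervals at 95%, which cover counting error only. A call across libraries is set against the spread over these 4 pools, estimated from all cell types tested together. DESeq2 1.42.0, other scalings, filters and gates and leaving out each library were alternatives. Scripts ran in R 4.3.3 and in Python 3.11.15 with scipy 1.17.1, numpy 2.4.6, matplotlib 3.10.9 and pandas 2.3.3. Gene positions are from GENCODE on GRCm38, the assembly of mm10. Alignment settings beyond the tool and build are not given in the sources used here. Some items are not reported here.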

Additional observations from a re-analysis of the deposited data

Results flagged for a closer look

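In 3 cases the diet ratios of the Nrf2flox/flox pair and of the pair labelled Nrf2Cdh5tKO had opposite signs with both counting intervals leaving out 0. Gdf15 in fibroblasts had a log2 diet ratio of -1.14 in the Nrf2flox/flox pair and 0.88 in the other. Bmp2 in phagocytes had 0.99 and -0.67, and Tgfb1 in phagocytes 0.22 and -0.18. With 1 library per condition the difference between the pairs was not tested.

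Cells that entered no comparison also held members' transcripts. Ambiguous cells, which passed the gates of several types, held 6.24% of all UMIs of the 10 members, and cells that passed no gate held 0.634%.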

How the results depend on the processing

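The number of members called in each of the 5 comparisons of cell types stayed within 1.5 times under all alternatives run. Leaving out the library block changed no call among 45 member folds, so that pairing the cell types by library decided none of them. Without the normocholesterolemic Nrf2flox/flox library the endothelial minus smooth muscle difference of Bmp2 turned to -2.04 from 0.18, and it was 0.37 at most with another library left out, since its 25 endothelial UMIs came from 1 cell of that library. Other calls gained or lost were Bmp2 in smooth muscle minus fibroblast (called at -0.42 with no filter and at -0.60 without that library), Bmp6 in phagocyte minus smooth muscle (called without the atherosclerotic Nrf2flox/flox library and with no filter), Inhba in phagocyte minus fibroblast (called in the same 2 settings), Gdf10 in endothelial minus smooth muscle (called without the normocholesterolemic Nrf2flox/flox library and with cells of 2 gates kept) and Inhba in endothelial minus smooth muscle (lost with 1 more marker needed). DESeq2 shifted the median of all genes by 0.12 on the log2 scale in both endothelial comparisons.

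Of the 96 ratios between libraries, 16 were past 2-fold, and 15 to 21 under other filters, gates and without the cell with the most UMIs. With the mean over cells in place of pooled UMIs, which weights cells equally and has no interval, the number was 27, beside 19 for pooled UMIs when the interval is not used. Tgfb2 in phagocytes of the atherosclerotic pair turned from -1.10 to 0.89 without the cell with the most UMIs and to 1.08 with the mean over cells. Grem1 in fibroblasts of the normocholesterolemic pair had no value without that cell. Shares of cells fell when cells were thinned to 5000 UMIs, for Inhba and Tgfb2 in smooth muscle cells too. Endothelial cells, 19 to 65 per library, limit what can be said of rare members there.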
